A study of Mus musculus with 12 samples.

Results

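Forced expression of PGC-1alpha was set against a GFP control in mouse embryonic fibroblasts. The comparison used 6 of the 12 arrays of the series, the 3 labelled PGC-1alpha and the 3 labelled GFP, chosen by their titles. The other 6 arrays, from a drug experiment, were normalized apart from these by the authors and were not used. All cells were TSC2-/- fibroblasts and so lacked a brake on the growth kinase mTOR in both groups. They were confluent, received adenovirus carrying either GFP or PGC-1alpha for 10 h, and were collected 14 h after the medium was changed. Both groups therefore carried virus, and no uninfected culture or TSC2 wild-type cell stood beside them. The labels give no share of infected cells, so more RNA per infected cell and more infected cells cannot be told apart. The series title places the experiment in a study of how the mTOR pathway controls mitochondrial genes through YY1 and PGC-1alpha.

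PGC-1alpha, encoded by Ppargc1a, is a coactivator that binds no DNA itself. It docks on transcription factors such as the estrogen-related receptor ERRalpha, the nuclear respiratory factors NRF1 and GABP, PPARs and YY1, and recruits enzymes and complexes that open chromatin and start transcription. It is best known for raising nuclear genes of mitochondrial respiration and of fuel oxidation in muscle and brown fat.

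Each array read 45037 probe sets, groups of short probes for one transcript, after 64 manufacturer's controls were left out. Values are RMA intensities, a linear brightness with array medians from 78.0 to 81.0, and changes are given on the log2 scale as PGC-1alpha minus GFP. For each of 18193 genes the brightest probe set stood for the gene. A gene is said to rise or fall only where limma's Benjamini-Hochberg adjusted p over all probe sets was under 0.05, and SE is limma's moderated standard error. The series design text calls the arrays of a group biological triplicates, and no label ties them to separate cultures, so the p-values measure the spread between these arrays. GFP replicate 3 stood apart. Differences between it and the other GFP arrays had an SD of 0.155 and 0.167 over probe sets, against 0.109 between those and 0.101 to 0.112 within the PGC-1alpha group. Differences between it and the PGC-1alpha arrays had an SD of 0.142 to 0.151. By this SD it lay nearer to each of those than to the other arrays of its own group. By Pearson correlation it did not, with 0.9973 for GFP 1, 0.997 for GFP 2 and 0.9972 to 0.9975 for the PGC-1alpha arrays. For lists that held a rise, counts that moved by over 1.5 times without GFP replicate 3 are given both ways.

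With all 6 arrays few genes were called and most called changes were small, but the number called depended strongly on GFP replicate 3. Of the genes measured 254 rose, 1.4% of those tested, and 110 fell, 0.605%. Among probe sets the shares were 0.997% for rises and 0.955% for falls. At an unadjusted limma p under 0.05, 1610 of the 18193 genes were higher and 599 lower. The counts at that threshold given below for single lists are to be read beside these. Among the 45037 probe sets 5223 had an unadjusted limma p under 0.05. The median size of a called change was 0.36 for rises and 0.40 for falls, and 17 genes rose and 10 fell by 1.5-fold or more. In all 254 and all 110 the arrays of the groups did not overlap, a pattern that 10.0% of all genes had upward and 5.72% downward. Without GFP replicate 3 the rises numbered 1199, or 6.59%, and the falls 200, or 1.1%. Leaving out any one of the other arrays gave 63 to 82 rises and 36 to 71 falls, and falls then outnumbered rises without GFP replicate 1 (64 rises and 69 falls) and without PGC-1alpha replicate 1 (68 and 71). Of the probe set calls 51.1% were rises, against 91.1% when the arrays were scaled on their spike controls, where 167 genes rose and 4 fell. That scaling moves all probe sets of an array by one shared amount, which changes the spread within groups for all of them. Its calls are thus not comparable with those of the unscaled fit. Of the 254 risen genes 51 passed in all 6 fits with one array left out, and 147 passed in only one of those fits, that without GFP replicate 3. Of the 110 fallen genes 29 passed in all 6.

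**Figure D1:**
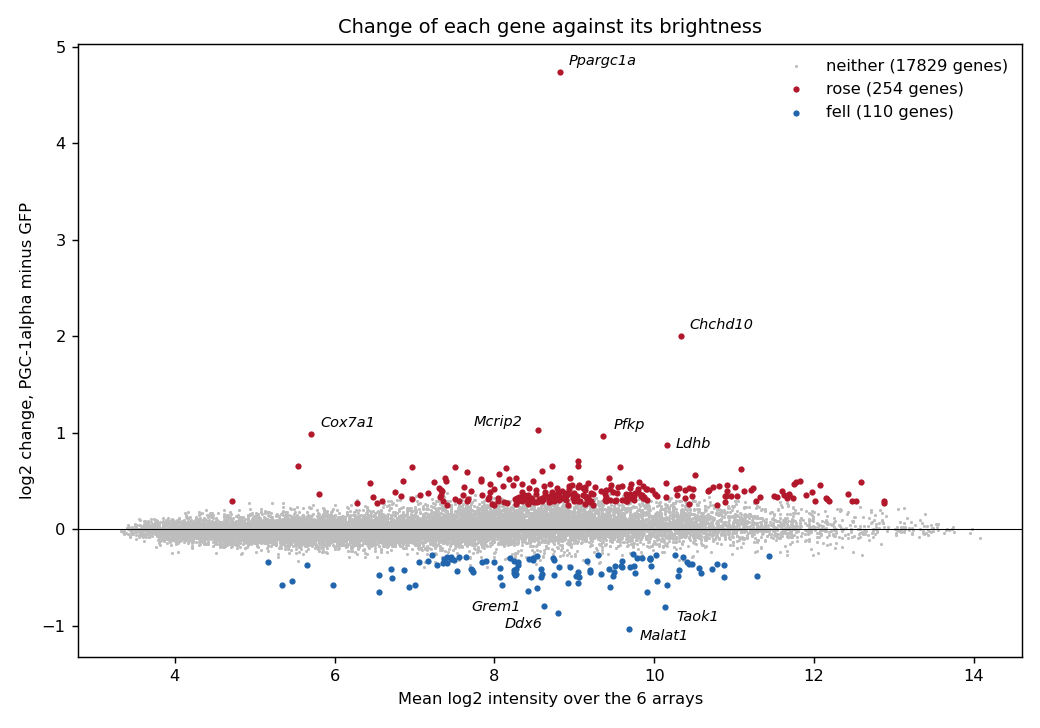
Log2 change of each of the 18193 genes (vertical axis, PGC-1alpha minus GFP) against the mean log2 intensity of its brightest probe set over the 6 arrays (horizontal axis). Red points are the 254 genes that rose and blue points the 110 that fell. Ppargc1a at 4.74 and Chchd10 at 2.00 stand clear of all other genes.

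**Figure D2:**
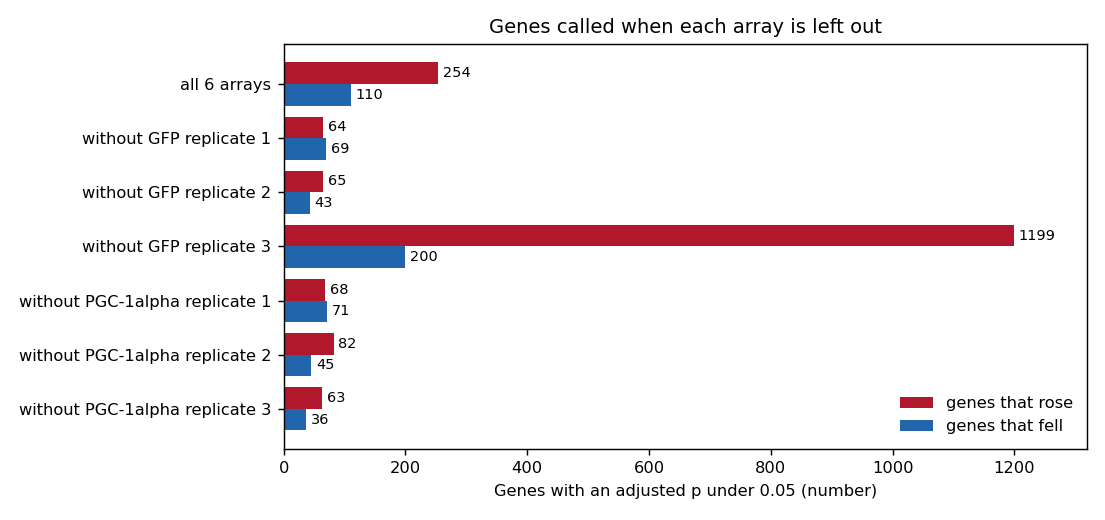
Number of genes that rose (red) and fell (blue) with all 6 arrays and with each array left out in turn. The bar for the fit without GFP replicate 3 reaches 1199 rises, and no other left-out array gives more than 82.

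Ppargc1a itself was read first as the check of the transgene. Its brightest probe set gave intensities of 81.0, 81.0 and 101.4 on GFP arrays 1, 2 and 3, and of 2295.1, 2183.0 and 2554.5 on the PGC-1alpha arrays. The labels therefore match the transgene on all 6 arrays. The log2 change was 4.74 (SE 0.09, limma adjusted p = 3.61e-11, n = 3 per group). The other 4 probe sets of the gene stayed dim, between mean intensities of 16.9 and 42.3 with GFP, and their changes ran from -0.13 to 0.03. The sources used here do not say which part of the transcript each one reads, or whether the viral copy carries it.

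Chchd10, a small protein of the mitochondrial intermembrane space, had the largest rise after the transgene. Its intensities were 637.4, 586.2 and 715.4 with GFP and 2598.9, 2432.6 and 2724.4 with PGC-1alpha. The groups lay far apart, with a 4.01-fold rise (log2 change 2.00, SE 0.08, limma adjusted p = 8.9e-08, n = 3 per group). Its second probe set rose by 1.59. Promoter sequence of this gene is shown because no other endogenous gene rose as much. It comes from RefSeq on build GRCm38.p6, covers the 250 bases before the annotated start on the plus strand at chr10:75932880-75933129, and is all in lower case because none of the 4 motifs searched further on occurs in it.
Chchd10: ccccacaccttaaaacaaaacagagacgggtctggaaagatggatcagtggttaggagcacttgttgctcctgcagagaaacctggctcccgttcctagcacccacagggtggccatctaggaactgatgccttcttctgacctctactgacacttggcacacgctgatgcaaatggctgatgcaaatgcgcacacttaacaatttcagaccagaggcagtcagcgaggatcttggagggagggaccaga

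Some of the larger rises were of genes of glucose and lactate use. Pfkp, the platelet-type phosphofructokinase, read 439.4, 407.4 and 578.2 with GFP and 960.4, 859.2 and 951.4 with PGC-1alpha. It rose by 0.97 (SE 0.11, limma adjusted p = 0.000763), with GFP replicate 3 the highest of its group, and 2 of its 3 probe sets rose. Ldhb, the lactate dehydrogenase subunit common in oxidative tissue, read 837.4, 794.8 and 901.3 with GFP and 1594.4, 1514.5 and 1539.3 with PGC-1alpha. All 4 of its probe sets rose, by 0.88 for the brightest and by 1.10 to 1.16 for the others. Hexokinase Hk1 rose by 0.44 and aldolase Aldoa by 0.29, both lost in every fit that kept GFP replicate 3 and left out another array. In all 4 of 19 measured genes of glycolysis and lactate rose and 0 fell, with a list median of 0.07 beside 0.01 over all genes. With any array other than GFP replicate 3 left out, 2 rose.

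Some ketone and amino acid enzymes rose, with Bdh1 and Got1 among the 20 largest rises. Bdh1, the mitochondrial enzyme that interconverts the main ketone bodies, rose from 138.7, 140.0 and 157.7 to 222.1, 218.7 and 241.4, a log2 change of 0.65 (SE 0.07, limma adjusted p = 0.000684), and both its probe sets rose. Oxct1, which activates ketone bodies for oxidation, rose by 0.41 and Hibadh, an enzyme of valine breakdown, by 0.30. These were 3 of 20 measured genes of branched-chain amino acid and ketone metabolism, where the median was 0.09. Of the 20, 6 rose without GFP replicate 3 and 1 or 2 without any other array. Got1, the cytosolic aspartate aminotransferase, rose by 0.56, from intensities of 1135.7 to 1258.8 to intensities of 1734.7 to 1796.6.

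Other large rises lay outside the mitochondrial lists. Mcrip2 rose by 1.03 from intensities of 255.0, 235.8 and 296.8 to 562.2, 520.4 and 523.3. Trp53inp2, a regulator of autophagy, rose by 0.71 and Retreg1, a receptor for autophagy of the endoplasmic reticulum, by 0.61. The dimmer probe set of Trp53inp2 did not pass, at 0.13, while that of Retreg1 rose by 0.36. Trp53inp2 was the single riser of 34 measured autophagy and lysosome genes. Of these 10 were higher at an unadjusted p under 0.05, and 9 rose without GFP replicate 3 and 1 without any other array. Rnf128, a ubiquitin ligase, rose by 0.65, the sialyltransferase St6galnac4 by 0.65 and Ndrg4 by 0.64. The dimmer probe sets of Rnf128 and St6galnac4 did not pass, at 0.35 and 0.14. Both probe sets of Ndrg4 rose, the dimmer one by 1.09. Nudt19, a hydrolase of coenzyme A, rose by 0.66 on the brighter of its 2 probe sets and by 0.76 on the other. Comtd1 rose by 0.66, Amn by 0.66 from a dim mean of 37.0 ± 0.914 (SD, n = 3), and Fastkd1, of a family of mitochondrial RNA-binding proteins, by 0.60. The dimmer probe set of Fastkd1 was at -0.05. All 20 of the largest rises passed in every fit with one array left out.

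**Figure D3:**
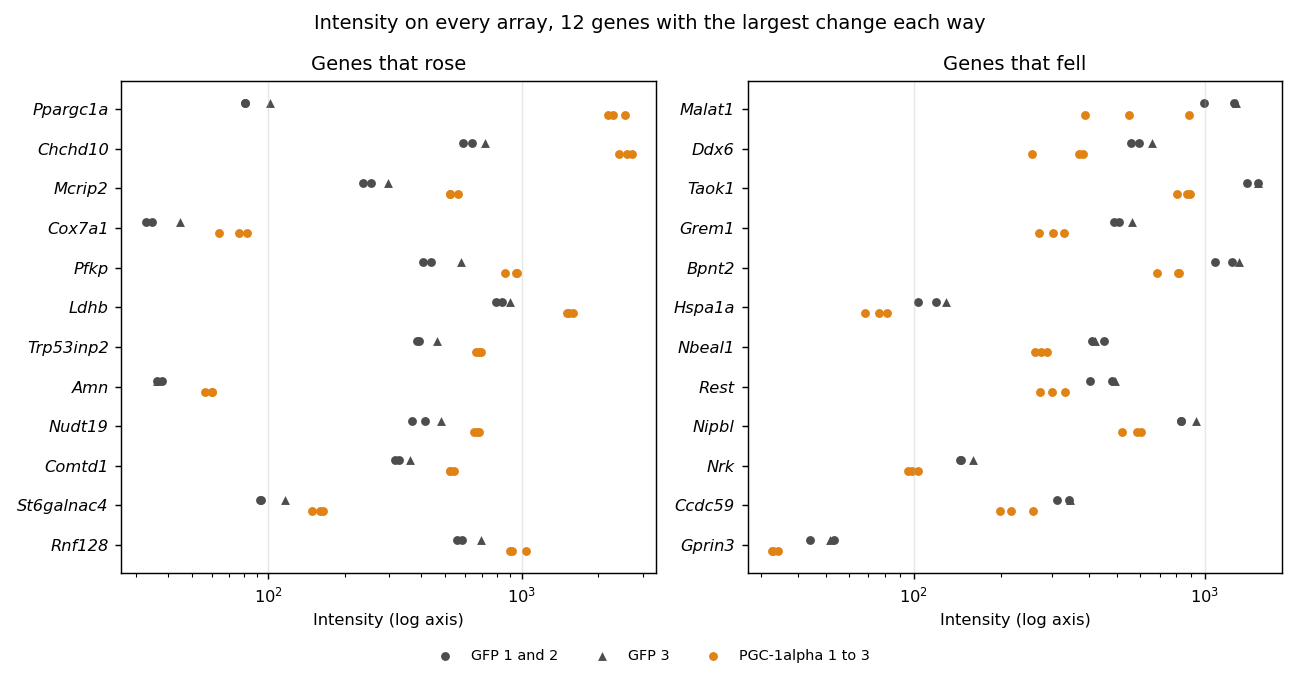
Intensity on every array (horizontal log axis) of the 12 genes with the largest rise (left) and the 12 with the largest fall (right). Grey marks are GFP arrays, with GFP 3 as a triangle, and orange points are the PGC-1alpha arrays. The groups do not overlap in any row, and the 3 PGC-1alpha points of Malat1 spread from 388.8 to 882.6.

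Each complex of the respiratory chain held subunits that rose, though most subunits did not pass. Of 79 measured subunits 23 rose and 0 fell by limma, against 1.4% and 0.605% of all genes. At an unadjusted p under 0.05 the numbers were 49 and 0, beside 1610 and 599 of all 18193 genes. The median change was 0.19, and 72 of 79 subunits had a change above 0. In 49 of the 79 the groups did not overlap with PGC-1alpha higher, beside 10.0% of all genes. Without GFP replicate 3, 38 rose, and without any one of the other arrays 4 to 9 did. The rises were small, and 14 of the 23 passed in only one of the fits with an array left out, that without GFP replicate 3. The 4 that passed in all of them were Cox5a, Cox7a1, Uqcrc1 and Uqcrfs1.

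By complex, complex I, which takes electrons from NADH, had 8 risen of 34, which became 16 without GFP replicate 3 and at most 1 without any other array. Ndufs3, a core subunit of its electron path, rose by 0.40, from 1942.4, 1780.3 and 2118.2 with GFP to 2710.2, 2458.7 and 2533.5 with PGC-1alpha. Ndufa4, listed here though it is now placed in complex IV, rose by 0.36, Ndufa6 by 0.35 and Ndufb9 by 0.34. Complex II, succinate dehydrogenase, had 3 of its 4 genes risen, with Sdhd at 0.36, Sdhb at 0.35 and Sdhc at 0.26. Sdhc only just passed (limma adjusted p = 0.0499). The list as a whole had a median of 0.31, and at most 1 of its genes rose when an array other than GFP replicate 3 was left out.

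Complex III with cytochrome c had 4 risen of 10, 6 without GFP replicate 3 and 2 or 3 without any other array, and a median of 0.28. Uqcrfs1, the Rieske iron-sulfur protein, read 1715.9, 1668.3 and 1950.3 with GFP and 2471.4, 2320.7 and 2439.1 with PGC-1alpha, a log2 change of 0.44 (SE 0.07, limma adjusted p = 0.00621). Its partner Uqcrc1, a core protein, rose by 0.43, Uqcr10 by 0.37 and cytochrome c1, Cyc1, by 0.37. Complex IV, cytochrome oxidase, had 3 risen of 15, 5 without GFP replicate 3 and 2 without any other array. Cox5a read 4940.9, 4939.6 and 5756.8 with GFP and 7300.1, 7288.7 and 7258.9 with PGC-1alpha, so that the PGC-1alpha arrays lay close together and GFP replicate 3 lay highest of its group. It rose by 0.49 (SE 0.07, limma adjusted p = 0.00338), while its 2 other probe sets were at 0.15 and 0.22. Cox7a1, the form of this subunit found in heart, muscle and brown fat, rose by 0.99 at dim levels, from 37.5 ± 6.45 to 74.3 ± 9.37 (SD, n = 3). Cox8a rose by 0.29. Complex V, the ATP synthase, had 5 risen of 16, 8 without GFP replicate 3 and 0 to 2 without any other array, with the membrane ring subunit Atp5g1 at 0.40 and the stalk subunits Atp5d at 0.36, Atp5c1 at 0.33 and Atp5o at 0.32.

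The tricarboxylic acid cycle, which feeds the chain, had 7 risen of 19, 0 fallen and a median of 0.26. At an unadjusted p under 0.05, 15 were higher and 0 lower. Idh3a, the catalytic subunit of NAD-dependent isocitrate dehydrogenase, read 1725.4, 1676.8 and 1834.5 with GFP and 2841.2, 2617.5 and 2622.6 with PGC-1alpha. It rose by 0.63 (SE 0.06, limma adjusted p = 0.000397), and 3 of its 4 probe sets rose. Mdh1, the cytosolic malate dehydrogenase, rose by 0.46, with its dimmer probe sets at 0.05 to 0.29. Ogdh, of the oxoglutarate dehydrogenase complex, rose by 0.43. The other 4 risen genes were Suclg1 and the 3 genes of complex II named above. Without GFP replicate 3, 13 rose, and without any one of the other arrays 2 to 4 did.

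Entry of pyruvate and fat moved less evenly. Mpc1, of the mitochondrial pyruvate carrier, rose by 0.38, Dlat by 0.37 and Pdhx by 0.30, the latter both subunits of pyruvate dehydrogenase. Pdpr, the regulatory subunit of the phosphatase of that enzyme, fell by 0.44, from 248.0, 233.3 and 260.2 to 184.2, 185.1 and 175.5 (SE 0.06, limma adjusted p = 0.00308). That made 3 risen and 1 fallen of 13. Without any one array other than GFP replicate 3, 0 rose there while Pdpr still fell. Fatty acid oxidation had 2 risen of 24, Etfdh at 0.45, which passes electrons from acyl-CoA dehydrogenases to ubiquinone, and Hadhb at 0.41, of the trifunctional protein. Its median was 0.14, 9 genes were higher at an unadjusted p under 0.05, and 6 rose without GFP replicate 3 and 1 or 2 without any other array.

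Of 22 measured genes of the peroxisome, another site of fat oxidation, 0 rose and 0 fell by limma, with 2 higher and 2 lower at an unadjusted p under 0.05, a median of 0.01 and 2 risen without GFP replicate 3. The smallest p-values were those of Ehhadh at 0.18 and Pex6 at 0.20. Among NAD and sirtuin genes 0 of 18 passed, with 2 higher at an unadjusted p under 0.05. Sirt3, the main mitochondrial deacetylase, was at 0.29 (SE 0.07, limma adjusted p = 0.0583), and 3 genes of that list rose without GFP replicate 3. Of 8 gluconeogenesis genes 0 passed and 1 was higher at an unadjusted p under 0.05, with Pck2 at 0.17.

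**Figure D4:**
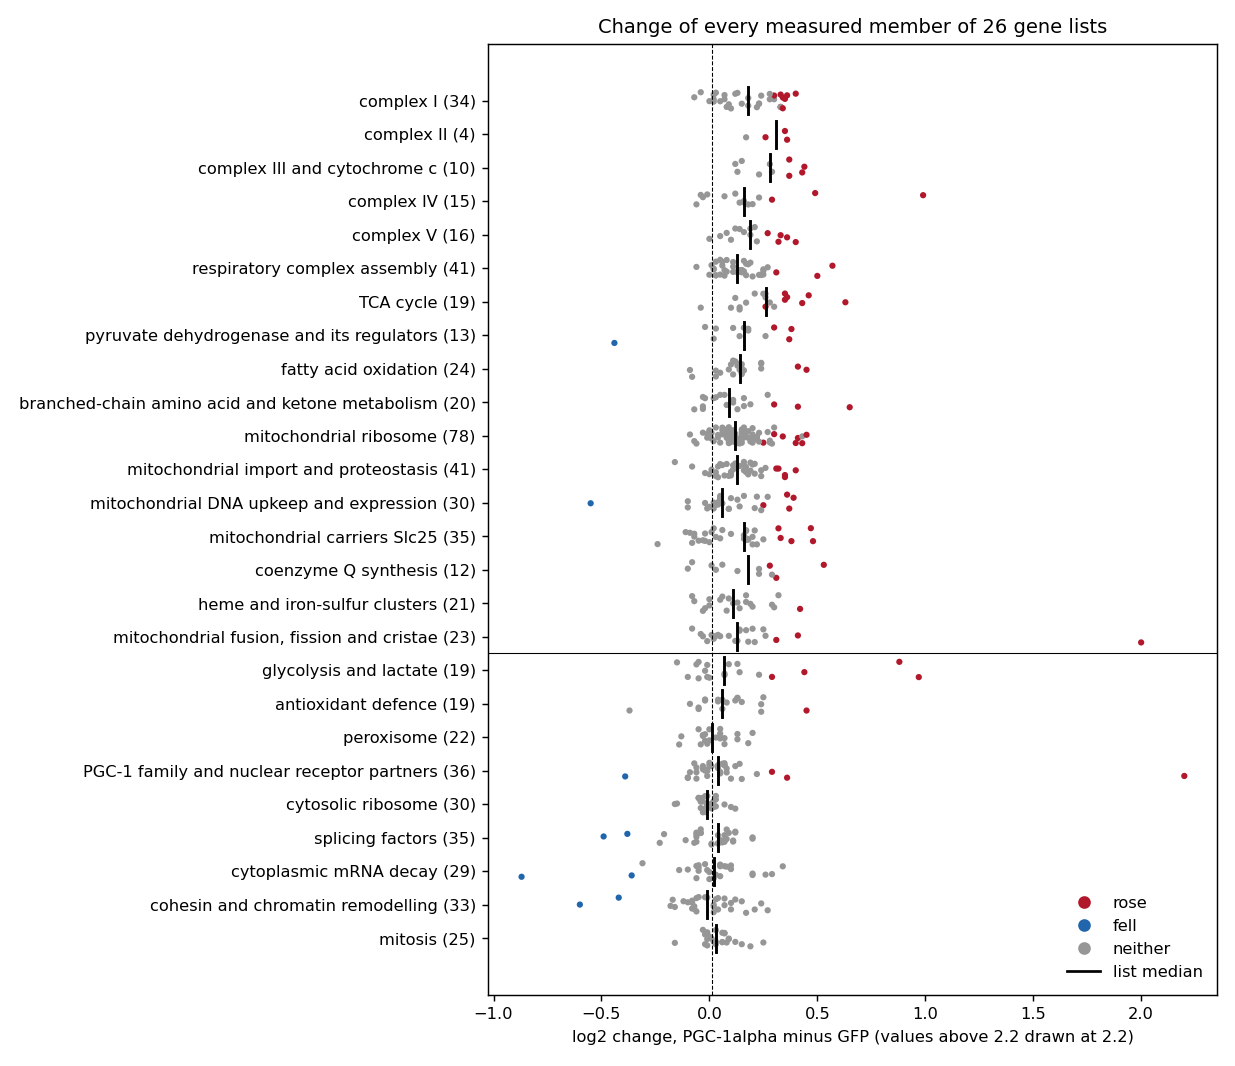
Log2 change of every measured member of 26 gene lists (horizontal axis), with the number of members in brackets. Red points rose, blue points fell, grey points did neither, the black bar is the list median and the dashed line the median of all genes. The 17 mitochondrial lists above the line have medians from 0.06 to 0.31, and the peroxisome and cytosolic ribosome lists have medians of 0.01 and -0.01.

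Genes that build and serve the chain rose in smaller shares. The mitochondrial ribosome, which translates the proteins encoded by mitochondrial DNA, had 7 risen of 78, with Mrps35 at 0.45, Mrpl12 at 0.43, Mrpl15 at 0.41 and Mrpl4 at 0.40. Its median was 0.12, 28 rose without GFP replicate 3 and 1 to 3 without any other array, and Mrpl12 passed in all fits with one array left out whereas Mrps35 passed only in that without GFP replicate 3. Import and protein quality control had 5 risen of 41, 12 without GFP replicate 3 and at most 1 without any other array. Among these were Timm8a1 and Timm9, chaperones of the intermembrane space, at 0.40 and 0.32, Mtx2 of the outer membrane at 0.35 and the protease subunit Afg3l2 at 0.35. Assembly factors had 3 risen of 41, 14 without GFP replicate 3 and 2 without any other array. Ndufaf5, for complex I, rose from 229.5, 211.0 and 220.2 to 314.4, 344.0 and 319.8, a log2 change of 0.57 (SE 0.06, limma adjusted p = 0.000759). Cox10, which makes the heme of cytochrome oxidase, rose by 0.50, and Tmem70, for complex V, by 0.31.

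Expression of the mitochondrial genome held both directions. The translation factors Gfm1 and Tufm rose by 0.39 and 0.37, the RNA helicase Supv3l1 by 0.36 and its partner nuclease Pnpt1 by 0.25. Tfb2m, the factor that lets mitochondrial RNA polymerase start, fell by 0.55 (SE 0.08, limma adjusted p = 0.00556), from 560.6, 531.4 and 668.2 with GFP to 422.6, 400.8 and 377.2 with PGC-1alpha. Of 30 measured genes of this list 4 rose and 1 fell, with 7 risen without GFP replicate 3 and at most 1 without any other array. Transcripts of the mitochondrial genome itself were not analysed here.

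Carriers and cofactor enzymes rose in part. Of 35 Slc25 carriers of the inner membrane 5 rose, 16 without GFP replicate 3 and 2 or 3 without any other array. The aspartate and glutamate carrier Slc25a12 rose by 0.48, Slc25a39, a carrier of glutathione, by 0.47, Slc25a23 by 0.38 and the oxoglutarate and malate carrier Slc25a11 by 0.33. For Slc25a39, 4 of 5 probe sets rose, by 0.37 to 0.47. Coenzyme Q synthesis had 3 risen of 12, 6 without GFP replicate 3 and 1 without any other array. Coq9 rose by 0.53, from 378.0, 377.5 and 476.3 to 579.0, 590.0 and 604.3, and Coq2 and Coq5 rose by 0.31 and 0.28. The dimmer probe set of Coq9 did not pass, at 0.06. Bola3, which helps hand on iron-sulfur clusters, rose by 0.42 as the single riser of 21 heme and iron-sulfur genes. Of the 21, 7 rose without GFP replicate 3 and at most 1 without any other array. Besides Chchd10, the cristae proteins Chchd3 and Apoo rose by 0.41 and 0.31, and 0 of the 23 genes of fusion, fission and cristae fell, with 0 lower at an unadjusted p under 0.05. Of the 23, 6 rose without GFP replicate 3 and 2 without any other array. Mitochondrial thioredoxin, Txn2, rose by 0.45 and was the single riser of 19 antioxidant genes. Of the 19, 4 rose without GFP replicate 3 and 1 without any other array.

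Taking the 17 mitochondrial lists as one set of 428 measured genes, 66 rose (15.4%) and 2 fell, Pdpr and Tfb2m. Neither of these falls passed when the arrays were scaled on spike controls, where calls are not comparable with those of the unscaled fit. The rises numbered 158 without GFP replicate 3 and 17 to 28 without any one of the other arrays. Of the 66, 16 passed in all 6 fits with one array left out, and 35 passed in only the one without GFP replicate 3. These lists held 2.35% of all genes measured, 26.0% of the risen and 1.82% of the fallen genes. The lists were drawn up with earlier results of these data known, so these shares describe them and are no independent test. Outside these lists 188 genes rose (1.06%) and 108 fell. Members were bright, and calls came more often among bright genes. Among the 4548 brightest genes 3.58% rose, against 18.3% of the 295 mitochondrial genes there, and 31.0% of the 71 respiratory subunits there. Among the next 4548 genes 1.67% of all and 10.5% of the 105 mitochondrial genes rose.

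Array by array, every PGC-1alpha array lay above GFP arrays 1 and 2 in the mean level of each of the 17 lists. In 14 lists every PGC-1alpha array also lay above GFP replicate 3, which was the highest GFP array in all 17. The exceptions were the mitochondrial ribosome, fatty acid oxidation and mitochondrial DNA expression. For the tricarboxylic acid cycle the mean log2 deviations from each gene's own mean were -0.15, -0.21 and -0.04 on the GFP arrays and 0.16, 0.10 and 0.13 on the PGC-1alpha arrays. For the mitochondrial ribosome they were -0.08, -0.17 and 0.03 with GFP and 0.11, 0.03 and 0.07 with PGC-1alpha, so there GFP replicate 3 was level with PGC-1alpha replicate 2. GFP replicate 3 was also the highest GFP array for 90.6% of the risen genes, 70.0% of the fallen genes and 46.7% of all genes. With limma's array weights, which gave GFP replicate 3 a weight of 0.311, 1218 genes rose and 271 fell.

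**Figure D5:**
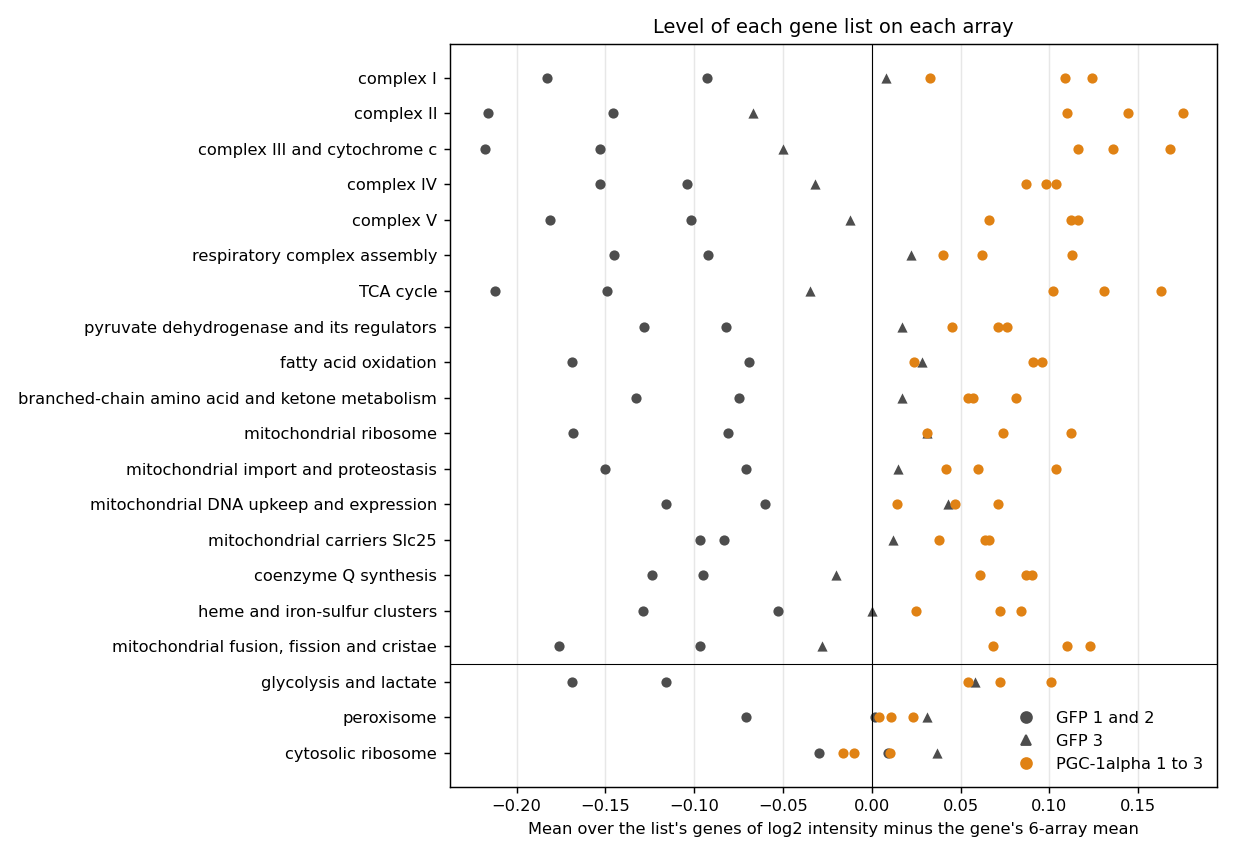
Mean over each list's genes of the log2 intensity minus the gene's mean over the 6 arrays (horizontal axis), one mark per array, for the 17 mitochondrial lists and 3 others. GFP 1 and 2 are grey points, GFP 3 a grey triangle and the PGC-1alpha arrays orange points. GFP 3 lies to the right of GFP 1 and 2 in each of the 17 rows, and left of every orange point in 14 of them.

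Among the factors PGC-1alpha works with, most transcripts were not called. Of 36 measured members of the PGC-1 family and its nuclear receptor partners 3 rose, the transgene Ppargc1a among them, and Creb1 fell. These were 8.33% and 2.78% of the list, beside 1.4% and 0.605% of all genes. Without GFP replicate 3, 5 rose, and without any one of the other arrays 1 or 2 rose and 0 or 1 fell. Ppargc1a itself passed in all 6 fits with one array left out. Esrra, which encodes ERRalpha, read 113.8, 120.7 and 121.2 with GFP and 149.9, 160.5 and 145.6 with PGC-1alpha. It rose by 0.36 (SE 0.06, limma adjusted p = 0.0108), whereas its second probe set was at 0.14. Ppard, encoding PPARdelta, rose by 0.29. Creb1, encoding a factor that activates Ppargc1a in other tissues, fell by 0.39 from 505.8, 490.3 and 549.1 to 417.9, 377.3 and 382.2. The relatives Ppargc1b and Pprc1 did not pass, at -0.06 and 0.10, nor did Nrf1 at -0.01, Gabpa at 0.08, Yy1 at 0.07 and Ppara at 0.07, and their arrays overlapped. Smarcd3, a chromatin remodelling subunit, was the single riser of 21 coactivator and corepressor genes, at 0.34, while 1.4% of all genes rose. Of the 21, 6 rose without GFP replicate 3 and 0 without any one of the other arrays, so the Smarcd3 call was lost there. Vegfb, of the VEGF family, rose by 0.45 as the single one of 13 angiogenic factors. With an array other than GFP replicate 3 left out, 0 or 1 of the 13 rose.

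Markers of the tissues in which PGC-1alpha is best known gave few calls. Of 22 skeletal muscle markers 0 passed by limma, with 1 higher at an unadjusted p under 0.05. Ckm was at -0.02, Myh7 at -0.09 and Myod1 at 0.04, with mean GFP intensities of 152.2, 28.4 and 64.2. Of 11 brown fat markers Ppargc1a and the dim Cox7a1 rose, 18.2% beside 1.4% of all genes. The virus carried Ppargc1a, so its rise was set by the design and is no sign of brown fat. Ucp1, the uncoupling protein of that tissue, was at -0.02 (intensity 49.6 ± 3.47 with GFP, SD, n = 3). White fat, macrophage, endothelial, epithelial and neural marker lists had 0 of 8, 12, 10, 13 and 13 members called, with 1, 0, 0, 0 and 1 at an unadjusted p under 0.05. Some fibroblast genes were bright, with mean GFP intensities of 10169.7 for Col1a1, 11056.9 for Fn1 and 9237.0 for Vim, while Lum was dim at 38.8. The epithelial genes Epcam and Krt19 also read 771.1 and 981.1, and levels of different probe sets do not by themselves settle the cell type. The values carry no detection calls, so whether a dim gene is expressed was not settled. None of the 16 fibroblast markers passed, with 3 higher and 1 lower at an unadjusted p under 0.05.

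Most of the fallen genes, like most of all genes, lay outside the lists. Of 110 fallen genes 12 belonged to any of the 52 lists, and 9 lists held a fall. The lists have 1210 measured memberships, with some genes in several lists, among 18193 genes measured. Malat1, a nuclear long non-coding RNA, read 992.1, 1260.2 and 1284.0 with GFP and 882.6, 549.1 and 388.8 with PGC-1alpha. It fell by 1.03 (SE 0.21, limma adjusted p = 0.0307), and the call held in only 2 of the 6 fits with one array left out. Of its 7 probe sets 4 fell, with changes down to -1.5 on the log2 scale, and the others were between -0.12 and 0.02. It was the single call among 14 nuclear-retained and long non-coding RNAs.

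Some falls were of genes of RNA and chromatin handling. Ddx6, a helicase of mRNA decay and storage, read 556.7, 596.5 and 659.6 with GFP and 382.3, 369.2 and 256.0 with PGC-1alpha. It fell by 0.87 (SE 0.13, limma adjusted p = 0.00402), and a second probe set fell by 1.29 while the other 2 were at 0.05 and -0.22. Zfp36l1, which marks AU-rich mRNAs for decay, fell by 0.36, making 2 of 29 mRNA decay genes. The splicing factors Srrm2 and Rbm25 fell by 0.49 and 0.38, 2 of 35. The cohesin loader Nipbl fell by 0.60 on 1 of its 5 probe sets, the other 4 being at 0.01 to 0.15, and the histone methyltransferase Kmt2c by 0.42, 2 of 33 genes of cohesin and chromatin remodelling. The falls were 6.9% (decay), 5.71% (splicing) and 6.06% (cohesin and chromatin) of these lists, beside 0.605% of all genes. The lists were drawn up with earlier results of these data known, so these shares are no independent test. Each of these lists had a median between -0.01 and 0.04. Without GFP replicate 3, 4 (decay), 2 (splicing) and 4 (cohesin and chromatin) of their genes rose, while 2 fell in each list.

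The remaining large falls were of varied genes. The kinase Taok1 read 1527.4, 1403.0 and 1522.6 with GFP and 871.0, 890.5 and 803.1 with PGC-1alpha, a fall of 0.80 (SE 0.06, limma adjusted p = 0.000104). Only that probe set of its 7 fell, and the others ran from -0.23 to 0.10. Grem1, a secreted antagonist of BMPs, fell by 0.79 from 489.3, 506.2 and 562.5 to 328.4, 302.4 and 269.2. The single riser of the 38 BMP, TGF-beta and Wnt genes was Sfrp1, a secreted Wnt antagonist, at 0.38. Of the 38, 8 rose without GFP replicate 3 and at most 1 without any other array. Bcl2l11, encoding the death-promoting protein Bim, fell by 0.53 on the brightest of 5 probe sets, of which 3 fell. Cflar, encoding the caspase-8 inhibitor FLIP, fell by 0.57 on the brightest of 5 probe sets, of which 2 fell, and Gsk3b by 0.57, on 1 of 6 probe sets for the latter. Rest, a repressor of neuronal genes, fell by 0.61 on 1 of 4 probe sets, the others being between -0.14 and -0.05. Hspa1a, the inducible chaperone Hsp70, fell by 0.65 as the single call among 18 heat shock genes. Without GFP replicate 3, 2 of the 18 rose and 2 fell. Bpnt2 fell by 0.65, Nbeal1 by 0.64, Nrk by 0.60, Ccdc59 by 0.58, Gprin3 by 0.58, Dnajb14 by 0.57, Rspry1 by 0.55, Ercc6 by 0.53 and Asxl3 by 0.50. Of the 20 largest falls, Malat1, Gsk3b and Ercc6 lost their call in at least 2 of the fits with one array left out. With the mean of all probe sets of a gene in place of the brightest, 12 of the 20 passed, and Taok1, Bpnt2, Rest, Nipbl, Gsk3b, Cflar, Dnajb14 and Rspry1 did not.

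Most called genes with several probe sets were called by one of them. Of 150 risen genes with more than 1 probe set, 39 (26.0%) had another that rose, and of 93 such fallen genes 22 (23.7%) had another that fell. The other probe sets of risen genes had a median change of 0.07 and 73.1% of them had the same sign. Those of fallen genes had a median of -0.03 and 58.5% had the same sign. A further 111 genes rose and 199 fell by a dimmer probe set only. With values seen first, the largest such falls were Bach1 at -1.27, Csnk2a1 at -1.10, Wnk1 at -1.07 and Atrx at -1.06, while their brightest probe sets were at -0.10, 0.00, 0.03 and -0.07. Dkc1, Garre1 and Nfib rose by their brightest probe set, by 0.42, 0.33 and 0.37, and held another that fell, by 0.45, 0.42 and 0.75. Nfib, named with its values seen, encodes a nuclear factor I transcription factor.

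Other programs gave few or no calls. Of 30 cytosolic ribosomal proteins 0 passed by limma, with 0 higher and 2 lower at an unadjusted p under 0.05. DNA replication and mitosis had 0 of 29 and 0 of 25, with 4 each at an unadjusted p under 0.05. Interferon response genes, which infection can raise, were compared between arrays that all carried virus, and 0 of 29 passed, with 2 higher and 3 lower at an unadjusted p under 0.05. The p53 targets, unfolded protein response, sterol and fatty acid synthesis, circadian clock, NF-kB and immediate early gene lists had 0 of 19, 21, 29, 16, 25 and 30 called, with 1, 1, 3, 1, 3 and 6 at an unadjusted p under 0.05. Of the immediate early genes 6 rose without GFP replicate 3. Of 33 extracellular matrix and YAP targets 0 passed, although 10 were higher and 2 lower at an unadjusted p under 0.05 and 5 rose without GFP replicate 3. Among ATF4 targets Cebpb rose by 0.33, the single call of 26. Of these 5 rose without GFP replicate 3 and 0 without any one of the other arrays.

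Control probe sets for RNA integrity differed slightly between the groups. The ratio of 3' to 5' signal for Gapdh was 0.875 ± 0.008 with GFP and 0.899 ± 0.006 with PGC-1alpha (SD, n = 3), without overlap. For pyruvate carboxylase, a biotin-bearing protein whose mRNA serves as a control, it was 0.859 ± 0.033 and 0.925 ± 0.029, also without overlap. Both had an exact permutation p of 0.1, the smallest that 3 against 3 allows, and the beta-actin and transferrin receptor ratios overlapped between the groups (p = 0.2 each, two-sided exact permutation test). Adjusted over the 5 control measures the smallest p was 0.25. Their part in the result was not tested.

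Promoters of the risen genes were searched for the letters that 4 partner factors are known to prefer. The motifs were TNAAGGTCA for ERR, GCGCANGCG for NRF1, CCGGAAGTG for GABPA and AAGATGGCG for YY1, on both strands, in the 300 bases from 250 before to 50 after each RefSeq start on build GRCm38.p6. Of 18193 genes 14452 had a promoter in the table, among them 213 risen and 88 fallen genes. A shorter nuclear receptor core, AAGGTCA, tried after the data were seen, lies inside the ERR motif. The plan was to show motif holders among the 15 largest rises, but 0 of these held one of the 4 motifs. Shown in their place, in order of change, are 6 risen mitochondrial genes whose match, in capitals, lies before the start. Of 54 risen mitochondrial genes with a promoter, 12 held the NRF1, 6 the GABPA, 2 the YY1 and 1 the ERR motif anywhere in the window. Positions are counted from the start, with -1 the base before it.
Cox10 (GABPA at -27 to -19, minus strand, chr11:64079473-64079529): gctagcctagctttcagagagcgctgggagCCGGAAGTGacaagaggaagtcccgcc
Etfdh (2 overlapping NRF1 matches from -128 to -119, minus strand, chr3:79628856-79628925): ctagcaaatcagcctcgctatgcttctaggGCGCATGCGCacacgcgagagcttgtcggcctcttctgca
Mrpl12 (NRF1 at -80 to -72, plus strand, chr11:120484527-120484595): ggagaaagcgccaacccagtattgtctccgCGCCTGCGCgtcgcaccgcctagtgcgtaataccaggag
Ogdh (NRF1 at -15 to -7, plus strand, chr11:6292513-6292557): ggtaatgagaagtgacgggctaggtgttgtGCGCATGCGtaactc
Sdhd (NRF1 at -79 to -71, minus strand, chr9:50603890-50603958): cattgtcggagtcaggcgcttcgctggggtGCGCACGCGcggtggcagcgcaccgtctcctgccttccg
Supv3l1 (NRF1 at -68 to -60, minus strand, chr10:62449768-62449836): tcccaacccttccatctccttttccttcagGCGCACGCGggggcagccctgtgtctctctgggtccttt

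The ERR motif was in 0.939% of risen, 0% of fallen and 1.20% of all promoters, and the shorter core in 4.23%, 2.27% and 4.61%. In risen against all mitochondrial genes the ERR motif was in 1.85% and 1.36%, and the shorter core in 7.41% and 7.9%. The NRF1 motif was in 13.1% of risen, 19.3% of fallen and 11.4% of all promoters. It was in 22.2% of the 54 risen mitochondrial genes with a promoter and in 20.4% of all 367 mitochondrial genes with one. The GABPA motif was in 5.63% of risen, 2.27% of fallen and 3.52% of all promoters. It was in 11.1% of the risen mitochondrial genes (6 of 54) against 5.72% of all mitochondrial genes (21 of 367). The YY1 motif was in 3.29%, 6.82% and 2.53% of risen, fallen and all promoters. It was in 3.7% of the risen mitochondrial genes (2 of 54) against 7.36% of all mitochondrial genes (27 of 367). Of the 15 largest rises 14 had a promoter in the table, and 0 of these held one of the 4 motifs. These counts say only which letters stand in these windows.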

How the data were processed

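RNA for the 6 arrays (3 GFP, 3 PGC-1alpha) was isolated with Trizol, per the labels' protocols, and read on Affymetrix mouse arrays. Per the series design text and the submitters' processing notes, the authors made the deposited intensity values with RMA at default settings in BioConductor 1.2, normalizing these 6 arrays as 1 batch. RMA's quantile step makes array distributions alike, so a change in total RNA is not seen. Their scale is not stated there. Since intensities lay between 9.299 and 20846.373 they were taken as linear, and log2 was applied with no pseudocount. Arrays have no depth, and 3 per group limit the precision.

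Of 45101 probe sets 64 Affymetrix controls were left out, and 45037 were tested without a filter. In the platform annotation 34945 had 1 gene symbol, 932 several and 9160 none. Only the first kind was named, with symbols updated through Entrez IDs (34741 matched) to RefSeq GRCm38.p6. The brightest probe set by mean log2 over the 6 arrays stood for each of 18193 genes, of which 9010 had more than 1. limma 3.58.1 (lmFit, eBayes) in R 4.3.3 compared the groups, two-sided, and was tested on simulated data. Python 3.11.15, pandas 2.3.3, SciPy 1.17.1 and matplotlib 3.10.9 did the rest. Promoters came from RefSeq.

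The members and the 52 gene lists were chosen with earlier results of these data known. Named genes were the 20 largest rises and 20 largest falls past the threshold without overlap of the groups, up to 4 called members of each list per direction, the 2 lowest p-values in lists without a call, and all members of the PGC-1 list. Genes chosen otherwise are marked. Replicate numbers did not pair samples. Same-numbered arrays' deviations correlated at -0.13, 0.23 and -0.01. Alternatives were a replicate block, spike scaling, an intensity filter, a pseudocount, an intensity trend, array weights, each array left out and the mean of a gene's probe sets.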

Additional observations from a re-analysis of the deposited data

How the results depend on the processing

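With one array left out, probe sets that rose ranged from 113 to 1957 and those that fell from 166 to 880. Genes that rose ranged from 63 to 1199 and genes that fell from 36 to 200, and risen respiratory subunits ranged from 4 to 38. With array weights, which gave GFP replicate 3 a weight of 0.311 and GFP replicate 1 one of 2.22, 2060 probe sets rose and 1215 fell, 1218 genes rose and 271 fell, and 38 respiratory subunits rose. Scaled on the 18 bacterial spike controls, every log2 change was higher by 0.17. Then 296 probe sets rose and 29 fell, so that 91.1% rather than 51.1% of calls were rises, 167 genes rose and 4 fell, and 13 respiratory subunits rose. All 20 of the largest rises and 4 of the 20 largest falls (Malat1, Ddx6, Taok1 and Grem1) passed there, and list medians just below 0 turned positive, from -0.01 to 0.15 for the cytosolic ribosome. The scaling moves all probe sets of an array by one shared amount, so the spread within groups changes for all of them. Malat1 went from a limma adjusted p of 0.0307 at -1.03 to 4.17e-06 at the smaller change of -0.86. Which genes passed under spike scaling is therefore no check of the unscaled calls. The spike controls' mean log2 intensity overlapped between the groups (10.386, 10.446 and 10.674 with GFP, 10.507, 10.284 and 10.21 with PGC-1alpha, two-sided exact permutation p = 0.3). With log2(intensity + 16), 295 probe sets rose. With the mean of all probe sets of a gene, 55 genes fell and 15 respiratory subunits rose. The Ppargc1a change was then 0.93, a mean over 5 probe sets of which 4 did not pass. Elsewhere it lay between 4.51 and 4.91. With the replicate block 436 probe sets rose and 395 fell, 253 genes rose and 95 fell, and 23 respiratory subunits rose. The replicate numbers did not pair the arrays. No named gene that passed with all 6 arrays changed sign under these alternatives. Which way most calls went did turn. Of the probe set calls 29.5% to 43.5% were rises without any one array other than GFP replicate 3, against 51.1% with all 6. Of the gene calls, falls outnumbered rises without GFP replicate 1 (64 against 69) and without PGC-1alpha replicate 1 (68 against 71). The cause of each shift other than fewer arrays was not tested. All changes are relative to the other probe sets, and no detection calls were at hand for dim probe sets.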
